A study of Mus musculus with 35 samples.

Results

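Long-term haematopoietic stem cells (LT-HSCs) that carried both JAK2V617F and the loss of Ezh2 were compared with LT-HSCs that carried neither. The double mutant was given by 6 libraries labelled SclCre JAK2V617F with the genotype Ezh2 -/-, and the control by 4 libraries labelled SclCre with the genotype Ezh2 +/+. These 10 libraries were taken, by their titles, from 35 libraries of mouse LT-HSCs, and all genes counted in them were used. Both single mutants served for direct comparisons, with 6 libraries of SclCre JAK2V617F Ezh2 +/+ and 4 of SclCre Ezh2 -/- without JAK2V617F. The 15 heterozygous libraries were not compared. They entered the scaling, the gene filter and the fit, where they helped to estimate the spread and the batch and sex terms. All groups carried SclCre, a Cre recombinase named for Scl, a gene active in blood stem cells, so that Cre itself is shared by mutant and control cells. The labels give no age, no induction scheme and no animal for a library, nor do they say how the JAK2V617F allele was made. Each library came from 1000 sorted cells. The double-mutant libraries were 3 females in batch 1, and 2 females and 1 male in batch 2. The controls were 2 females in each batch, and batch is the experimental batch named in the labels.

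LT-HSCs are the rare, mostly quiescent cells that renew themselves and supply all blood lineages. JAK2 is the kinase that passes signals from the erythropoietin, interleukin 3 and related receptors to STAT transcription factors, and its V617F form signals without a ligand and drives myeloproliferative neoplasms. EZH2 is the catalytic subunit of the polycomb repressive complex PRC2, which marks histone H3 on lysine and keeps developmental genes silent, and EZH1 is its less active relative.

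Total counts were 23.67 to 48.56 M (1 M is 1000000) in double-mutant and 20.02 to 22.29 M in control libraries, so every double-mutant library was deeper than every control, while genes with counts, 13967 to 15160 in double-mutant and 14319 to 14812 in control libraries, overlapped. The part of depth in the results was not tested. Levels are counts per 1000000 counts (CPM), changes are log2 ratios with their standard error (SE) from edgeR's quasi-likelihood test, and a gene was called changed at a Benjamini-Hochberg adjusted p under 0.05 over 14945 genes. All 10 LT-HSC markers (Procr, Slamf1, Hlf, Mecom, Fgd5, Hoxb5, Kit, Ly6a, Mllt3 and Meis1) were present in all 10 libraries. Defining genes of other cells were low or variable: Cd79a reached at most 1.46 CPM in double-mutant and 2.47 CPM in control libraries, Cd3e 2.52 CPM in double-mutant libraries with 0 in every control, and Cdh5 was at 0 in every double-mutant library and at most 0.667 CPM in controls. Neutrophil transcripts were present in both groups, S100a8 at 28.1 to 1140 CPM in double-mutant and 323 to 1290 CPM in control libraries. The double-mutant library of batch 1 replicate 2 stood apart. Its mean log2(CPM + 1) over megakaryocyte genes was 6.30, against 4.70 to 5.33 in the other double-mutant libraries, its level of MHC class II genes was 6.34, against 4.92 to 5.11, and its level of interferon-stimulated genes was 6.59, against 5.80 to 6.21. Pf4, a platelet chemokine, reached 1040 CPM at its highest in double-mutant libraries, against 43.8 to 58.2 CPM in controls. Without it 563 genes were called between double mutant and control, 522 of them among the 804 called with it, and the calls of named genes that were lost are given beside their lists. In such bulk samples, fewer cells of a type and less RNA per cell cannot be told apart.

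The genotype labels were checked on Ezh2. A part of the gene of 178 bases was counted on its own, and the sources used here do not state whether it is the deleted part. It held 0 of the 5046 Ezh2 counts in the 6 double-mutant libraries, which allows a share of up to 0.213 to 0.634% in a single library (3 counts, counting error only). In the controls it held 7.04, 7.34, 6.02 and 8.72% of the Ezh2 counts. The difference was -7.28 percentage points (exact two-sided permutation p = 0.00476, the smallest that 210 regroupings allow). Over the whole gene, Ezh2 lay between 18.5 and 39.2 CPM (median 25.8) in double-mutant libraries and at 48, 61.3, 27.8 and 43.2 CPM in controls. Of the 6 double-mutant libraries, 3 lay below every control, and the fall (log2 -0.74 ± 0.22, adjusted p = 0.0392) was no longer called under 10 alternatives, among them the fit without the library that stood apart (adjusted p = 0.0662). Such counts of lost calls, here and for other genes, leave out the fits on a single batch. Ezh1 lay between 69 and 88.9 CPM (median 79.9) in double-mutant libraries and at 120.1, 112, 101 and 105 CPM in controls, with a log2 change of -0.49 ± 0.17 that did not pass (adjusted p = 0.0811), although the groups did not overlap. Jak2 lay between 56 and 134 CPM (median 84.5) in double-mutant libraries and at 58.8, 55.1, 45.2 and 60.7 CPM in controls. It was called higher (log2 0.61 ± 0.16, adjusted p = 0.0205), with a log2 change of 1.02 in batch 1 alone and 0.22 in batch 2 alone, and the groups overlapped. The call was lost under 6 alternatives, 4 of them with 1 library left out (adjusted p up to 0.116).

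Between double-mutant and control cells 804 genes changed (5.38% of those tested), 460 upward (3.08%) and 344 downward (2.3%). Of these, 320 changed at least 2-fold, and the median size of a called change was 0.83 on the log2 scale. Of 800 called genes that could be fitted in each batch alone, 798 (99.8%) moved the same way in both batches, against 61.4% of all tested genes. The batches took part in the fit that called these genes, so this share describes them and is no independent check. Without the control of batch 1 replicate 1 the count was 379, and without the double-mutant library of batch 1 replicate 2 it was 563. Called genes were mostly higher in the mitosis, DNA replication and interferon lists and mostly lower in the stem cell signature.

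**Figure D1:**
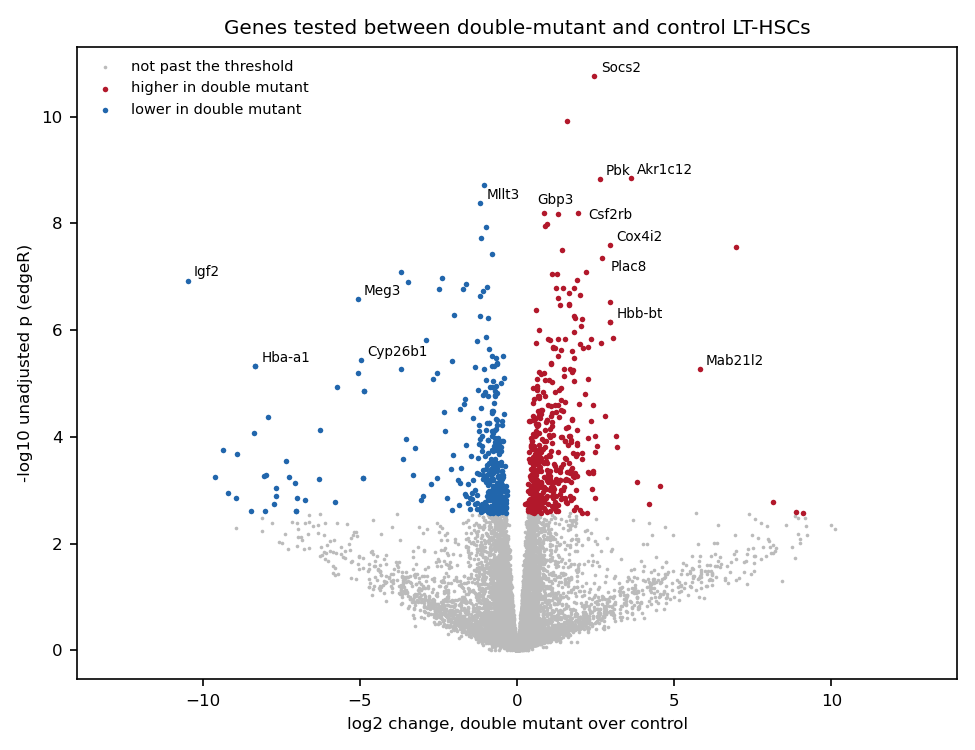
Each point is a tested gene, placed by its log2 change of double mutant over control (x axis) and the negative log10 of its unadjusted p (y axis, edgeR). The 460 genes called higher are red, the 344 called lower blue and the others grey, and Socs2 has the smallest p; points beyond about 5 on the x axis are mostly genes with few or no counts in a group, whose fitted change is uncertain.

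Genes of cytokine signalling moved in both directions. Of 29 tested targets of JAK-STAT signalling, 3 rose (Socs2, Cish and Btg2), 3 fell (Gadd45g, Pim3 and Spry2) and 23 were not called, with a median log2 change of 0.35, against -0.01 over all tested genes. Without the library that stood apart 2 rose and 1 fell (Socs2, Cish and Gadd45g), and Btg2 was not called (adjusted p = 0.0652). Over the alternatives, Btg2 was lost under 6 and Gadd45g under 10 (adjusted p up to 0.125 and 0.147). Socs2, a STAT5-induced suppressor of cytokine signalling, lay between 109.6 and 312 CPM (median 241) in double-mutant libraries and at 37.1, 24.2, 48.6 and 54.4 CPM in controls. The lowest double-mutant library was above every control, and the rise (log2 2.46 ± 0.25, adjusted p = 2.56e-07) had the smallest adjusted p of all genes. Cish, a further member of the same inhibitor family, lay between 252 and 723 CPM (median 466) in double-mutant libraries and at 144, 104, 124 and 164 CPM in controls. These groups were also separate, and the rise (log2 1.66 ± 0.26, adjusted p = 0.000117) was 1.20 in batch 1 alone and 2.19 in batch 2 alone. In single mutants, Socs2 averaged 140.1 ± 25.2 CPM with JAK2V617F alone (SD, n = 6) and 28.8 ± 7.44 CPM with loss of Ezh2 alone (SD, n = 4). The direct difference from JAK2V617F cells did not pass (log2 0.85, adjusted p = 0.0616), whereas it was called without the library that stood apart (log2 0.96, adjusted p = 0.0153).

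The promoter of Cish is shown because the gene rose and its start region holds the palindrome of STAT factors (TTCNNNGAA, identical on both strands), in capitals. The sequence is RefSeq's, 250 bases before to 50 after the annotated start, on build GRCm38.p6 at chr9:107296409-107296708, the plus strand; the counts were made on mm9, so coordinates and counts come from different builds.
Cish promoter: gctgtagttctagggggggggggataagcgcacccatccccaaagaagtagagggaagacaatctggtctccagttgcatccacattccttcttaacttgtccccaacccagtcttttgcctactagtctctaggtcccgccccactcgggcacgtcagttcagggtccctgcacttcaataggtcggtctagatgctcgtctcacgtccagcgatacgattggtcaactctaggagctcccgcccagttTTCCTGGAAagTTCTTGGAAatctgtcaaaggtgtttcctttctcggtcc
Both matches lay at the annotated start. The motif occurred in 8.3% of the 32851 promoters of the same length, and a match describes the letters only.

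Of 30 tested cytokine receptor genes 1 rose and 3 fell, and of 19 JAK-STAT components Jak2 alone was called, with the losses given above. Csf2rb, the shared chain of the interleukin 3, interleukin 5 and GM-CSF receptors, lay between 83.3 and 132 CPM (median 99.3) in double-mutant libraries and at 37.2, 34, 12.2 and 28.2 CPM in controls. All double-mutant libraries were above all controls (log2 1.94 ± 0.25, adjusted p = 1.13e-05). Tnfrsf1b, a receptor of tumour necrosis factor (log2 -0.61, adjusted p = 0.0221), and Csf3r, the receptor of G-CSF (log2 -0.61, adjusted p = 0.0341), were among the falls. Csf3r was lost under 10 alternatives, among them limma-voom, the fit with no sex term and the fit without the library that stood apart (adjusted p = 0.0612), and Tnfrsf1b was lost under 3, each with 1 library left out (adjusted p up to 0.0886). Medians were -0.29 for the receptors and -0.13 for the components.

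**Figure D2:**
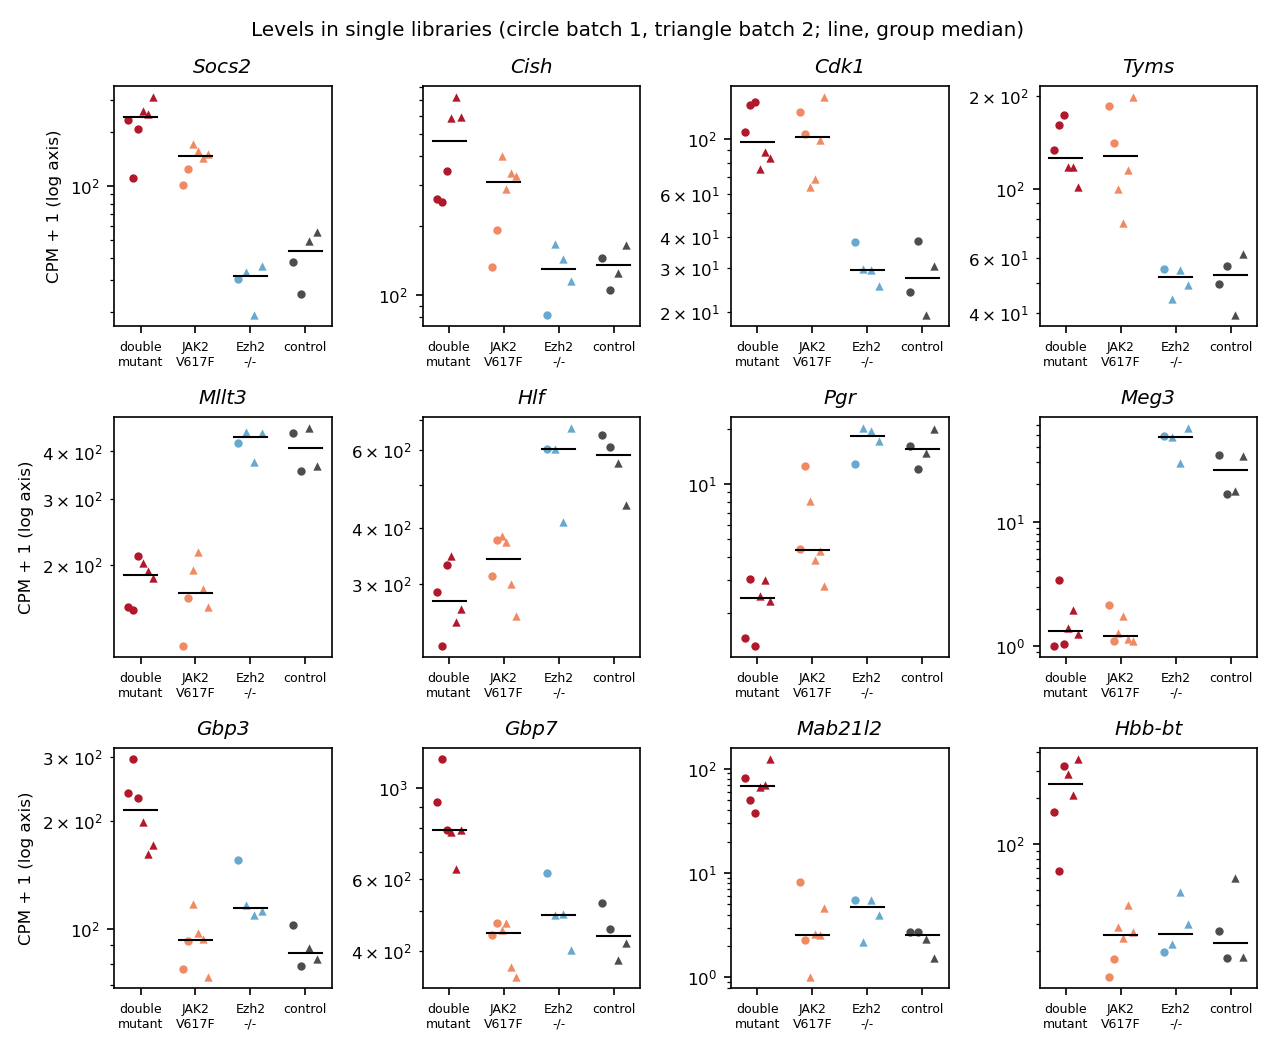
CPM + 1 of 12 genes on log axes in double-mutant, JAK2V617F, Ezh2 -/- and control libraries, from left to right; circles are batch 1, triangles batch 2 and lines group medians. Socs2, Cish, Cdk1 and Tyms of the double mutant lie above all 4 controls and Mllt3, Hlf, Pgr and Meg3 below them, with the JAK2V617F medians on the same side as the double mutant, while Mab21l2 and Hbb-bt are high in the double mutant alone.

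Genes of cell division rose together. Of 58 mitosis genes 40 rose, with a median log2 change of 1.70 and all 58 fitted changes positive, where 48.8% of all tested genes were positive. In 41 of the 58 all double-mutant libraries lay above all controls (4.19% of all tested genes). The summed level of the list was 2855 to 6032 CPM in double-mutant and 1072 to 1871 CPM in control libraries. Cdk1, the kinase that drives entry into mitosis, lay between 74.5 and 139.9 CPM (median 96.6) in double-mutant libraries and at 23.1, 37.7, 18.3 and 29.5 CPM in controls. Even the lowest double-mutant library exceeded the highest control (log2 1.91 ± 0.28, adjusted p = 7.06e-05). Pbk, a mitotic kinase, lay between 65.4 and 201 CPM (median 91.8) in double-mutant libraries and at 18.1, 27.7, 11.7 and 11 CPM in controls, also without overlap (log2 2.63 ± 0.32, adjusted p = 5.45e-06). Bub1b, a kinase of the spindle checkpoint, lay between 57.5 and 118 CPM (median 65) in double-mutant libraries and at 18.4, 25.1, 10 and 12.7 CPM in controls (log2 2.20 ± 0.32, adjusted p = 6.01e-05). Ncapg, a condensin subunit, lay between 37 and 152 CPM (median 61.1) in double-mutant libraries and at 21.1, 10.2, 3.9 and 5.54 CPM in controls (log2 2.97 ± 0.46, adjusted p = 0.000113). Double-mutant libraries of batch 1 were the highest for each of these 4 genes. Mki67, the proliferation marker Ki-67, showed the batches too, at 205, 326.7 and 421 CPM in the double-mutant libraries of batch 1 and 115.7, 104 and 101.9 CPM in those of batch 2, against 81.2 and 104.9 CPM in the controls of batch 1 and 32 and 58 CPM in those of batch 2. Within each batch its change was 1.77 and 1.22, and across batches the groups overlapped (log2 1.53 ± 0.31, adjusted p = 0.00224).

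Of 56 DNA replication genes 33 rose, with a median of 0.91 and all 56 changes positive. Tyms, which makes thymidylate, lay between 101 and 173 CPM (median 125) in double-mutant libraries and at 48.4, 55.6, 38.2 and 61.1 CPM in controls, without overlap (log2 1.37 ± 0.21, adjusted p = 0.000117). Pcna, the sliding clamp of DNA polymerases, lay between 69.1 and 94.9 CPM (median 81.9) in double-mutant libraries and at 42.8, 40.2, 46.7 and 51.1 CPM in controls (log2 0.84 ± 0.16, adjusted p = 0.000946). Here too the groups were separate. Ccne2, the cyclin that opens S phase, lay between 27.9 and 72.3 CPM (median 51.3) in double-mutant libraries and at 18.7, 20, 6.41 and 12.3 CPM in controls (log2 1.81 ± 0.29, adjusted p = 0.000171), and Cdc7, the kinase that fires replication origins, rose by a log2 change of 1.66 ± 0.25 (adjusted p = 8.75e-05). Without the double-mutant library that stood apart, 35 mitosis and 23 DNA replication genes were called higher, and without the control of batch 1 replicate 1, 29 and 19. In batch 1 alone 17 and 12 were called, and in batch 2 alone 6 and 0, with list medians of 1.72 and 1.04 in batch 1 and 1.56 and 0.77 in batch 2.

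The promoter of Cdk1 is shown for the motifs that the called mitosis genes share: the CCAAT box (ATTGG on the other strand) and the cell cycle genes homology region, CHR (TTTGAA, or TTCAAA on the other strand), both in capitals. It lies at chr10:69352863-69353162 on the minus strand of GRCm38.p6.
Cdk1 promoter: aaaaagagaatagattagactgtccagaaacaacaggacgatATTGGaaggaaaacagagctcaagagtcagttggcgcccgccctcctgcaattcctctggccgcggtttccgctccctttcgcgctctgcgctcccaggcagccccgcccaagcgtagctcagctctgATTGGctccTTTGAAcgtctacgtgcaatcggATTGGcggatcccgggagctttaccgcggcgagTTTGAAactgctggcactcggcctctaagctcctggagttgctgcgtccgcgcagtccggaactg
The sequence held 3 CCAAT boxes and 2 CHR letters. Of the 40 called mitosis genes 34 had a promoter in the table, of which 26 (76.5%) held CCAAT and 26 held TTTGAA, against 41.1 and 20.2% of 27025 genes. For the called DNA replication genes, 27 with a promoter, the counts were 17 (63.0%) and 6 (22.2%). The matches of these motifs in the Cdk1 promoter did not overlap.

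Regulators of the step from rest to S phase changed less. Of 24 genes of CDK inhibitors and G1 control, 6 rose (Ccne2, Cdk4, Btg2, E2f1, Rbl1 and Cdkn2c) and 1 fell, with a median of 0.15, and Ccne2 and E2f1 also stand in the replication list. Cdk4, the kinase of G1, lay between 512 and 587 CPM (median 564) in double-mutant libraries and at 408, 415, 392 and 394 CPM in controls (log2 0.47 ± 0.11, adjusted p = 0.00799). Its groups did not overlap. Cdkn1b, the inhibitor p27, lay between 62.2 and 95 CPM (median 66.3) in double-mutant libraries and at 91.9, 101, 126 and 141 CPM in controls (log2 -0.66 ± 0.14, adjusted p = 0.00381). The single highest double-mutant library, batch 2 replicate 3, reached into the control range. Cdkn2a, a classical target of EZH2, had 0 counts in all 10 libraries. Of 29 genes in the list of p53 targets 2 rose, Trp53 itself and Btg2, and 1 fell (median 0.15). Over all tested genes 3.08% rose and 2.3% fell. Trp53 changed by log2 0.53 ± 0.11 (adjusted p = 0.00204). Plk2, a stress-induced kinase, was the fall (log2 -1.82 ± 0.38, adjusted p = 0.0029), to 20.8 to 107 CPM in double-mutant libraries, against 232, 74.7, 410.3 and 446 CPM in controls. Of 38 immediate early genes Zfp36 and Btg2 rose (median 0.07), and Zfp36 was lost under 7 alternatives (adjusted p up to 0.0996). Btg2, which stands in these 3 lists too, was not called without the library that stood apart, as given above.

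Genes of the stem cell signature fell. Of 60 tested, 17 fell and 2 rose, Socs2 and Ifitm1, which also stand in the JAK-STAT and interferon lists, and the median was -0.30. Mllt3, a regulator of stem cell maintenance, lay between 151 and 209.8 CPM (median 187) in double-mutant libraries and at 448, 355, 461 and 365 CPM in controls. Every double-mutant library was below every control (log2 -1.17 ± 0.15, adjusted p = 1.03e-05). Hlf, a transcription factor that marks LT-HSCs, lay between 216 and 344 CPM (median 274) in double-mutant libraries and at 646, 608, 558 and 449.5 CPM in controls (log2 -0.99 ± 0.17, adjusted p = 0.000357), again without overlap. Meis1, a partner of HOX proteins, lay between 747 and 999.7 CPM (median 801) in double-mutant libraries and at 1264, 1043, 1138 and 1058 CPM in controls (log2 -0.41 ± 0.09, adjusted p = 0.0033). Runx1t1, a corepressor gene, lay between 4.31 and 17.4 CPM (median 9.93) in double-mutant libraries and at 68.2, 29.9, 55 and 44.5 CPM in controls (log2 -2.39 ± 0.35, adjusted p = 6.95e-05). Clec1a, a C-type lectin receptor, lay between 29.1 and 64.5 CPM (median 39.7) in double-mutant libraries and at 164, 97.3, 118 and 149 CPM in controls (log2 -1.63 ± 0.24, adjusted p = 7.61e-05). All 3 were separate between the groups. Procr, the protein C receptor used to sort LT-HSCs, lay between 66.6 and 133 CPM (median 104) in double-mutant libraries and at 180.2, 103, 206 and 153 CPM in controls, with a log2 change of -0.63 ± 0.20 that did not pass (adjusted p = 0.0529). Slamf1 and Fgd5 were closer, at log2 changes of -0.09 (adjusted p = 0.872) and -0.03 (adjusted p = 0.967). Without the control of batch 1 replicate 1 the list had 12 called falls, and each batch alone had 6.

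**Figure D3:**
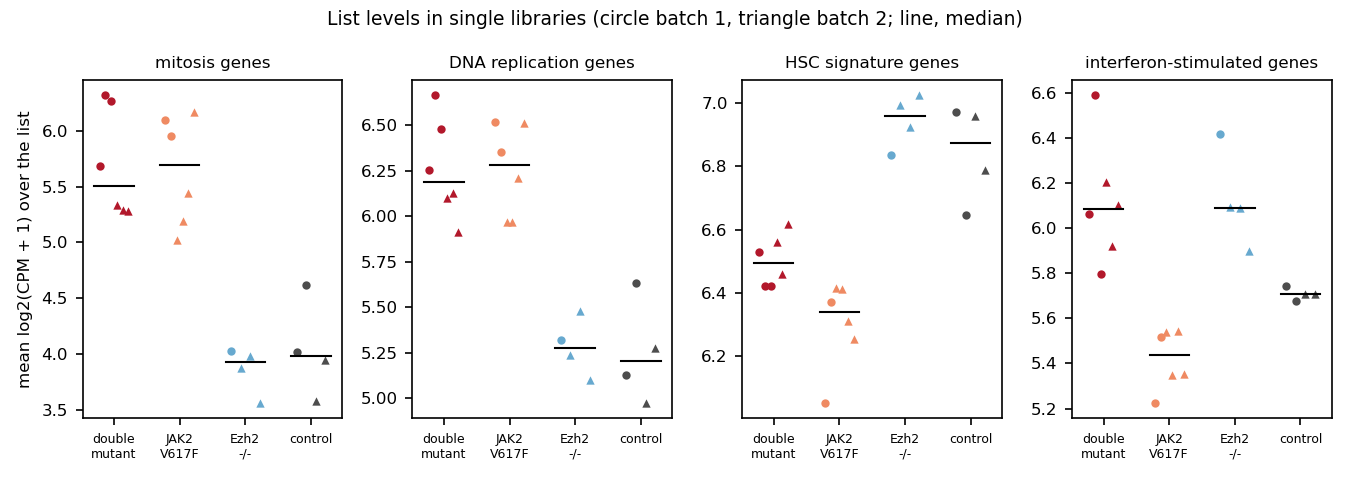
Mean log2(CPM + 1) over 4 gene lists in single libraries of the double mutant, JAK2V617F, Ezh2 -/- and control groups, from left to right; circles are batch 1, triangles batch 2 and lines medians. Mitosis levels were 5.28 to 6.32 in double-mutant and 3.58 to 4.62 in control libraries, stem cell signature levels 6.42 to 6.62 in double-mutant and 6.65 to 6.97 in control libraries, and interferon levels 5.80 to 6.59 in double-mutant and 5.68 to 5.74 in control libraries.

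Some imprinted genes were among the deepest falls. Of 36 imprinted genes 7 fell and 1 (Sgce) rose, with a median of -0.44. Without the library that stood apart 4 of the 36 fell, with a median of -0.45. Of 19 fetal genes 3 fell (Igf2, Meg3 and Ndn) with a median of -0.30, and all 3 are also counted among the imprinted falls. Over all tested genes 2.3% fell. Igf2, the paternally expressed growth factor, had 0 counts in all 6 double-mutant libraries and 585 in the 4 controls, at 8.29, 5.82, 5.86 and 6.78 CPM, so it was at least 431-fold lower against a limit of 3 counts over the group (adjusted p = 7.08e-05). Meg3, a maternally expressed long RNA, lay between 0 and 2.4 CPM (median 0.339) in double-mutant libraries and at 33.6, 15.7, 16.8 and 33.1 CPM in controls (log2 -5.08 ± 0.79, adjusted p = 0.0001). Rian, its neighbour in the same imprinted domain, had 0 counts in double-mutant cells and 120 in controls, at least 88.4-fold lower. Ndn, a growth-restraining protein, lay between 56.4 and 108 CPM (median 95.7) in double-mutant libraries and at 109, 92.2, 148 and 122 CPM in controls, a small fall (log2 -0.43 ± 0.13, adjusted p = 0.0465) that was not called without the library that stood apart (adjusted p = 0.0822). Lin28b, the fetal RNA-binding protein, was not called (log2 4.21 ± 1.34, adjusted p = 0.0643), although its 2.55 to 12.2 CPM in double-mutant libraries lay above the 0.857, 1.01, 0.093 and 0 CPM of all controls.

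Few targets of PRC2 had enough counts to be tested. Of 92 listed developmental genes under polycomb control, 74 were matched, 13 passed the low-count filter, and 33 had no count in any of the 10 libraries. Of the 13, only Mab21l2 rose and only Sox9 fell, where 3.08% of all tested genes rose and 2.3% fell. The median of the 13 was -0.95, mostly from genes with few counts. In batch 1 alone the median was -0.31 and in batch 2 alone -0.40. The matched genes, Mab21l2 included, summed to 60.22 to 145 CPM in double-mutant and 23.55 to 36.53 CPM in control libraries. Mab21l2 alone made up 36.9 to 123 CPM of this in double-mutant and 0.531 to 1.72 CPM in control libraries, so the higher sum does not describe the other genes. With Mab21l2 included, the mean log2(CPM + 1) over the 13 was 1.25 in double-mutant and 1.11 in control libraries. Sox9 was lost under 8 alternatives (adjusted p up to 0.15), among them the fit without the library that stood apart (adjusted p = 0.0733), in which 14 of the genes were tested and the median was -0.58. Mab21l2, a developmental gene of the eye and brain, lay between 36.9 and 123 CPM (median 67.1) in double-mutant libraries and at 1.71, 1.72, 1.35 and 0.531 CPM in controls. It had the largest rise among the well-expressed called genes (log2 5.81 ± 1.07, adjusted p = 0.00084), and the groups were far apart in both batches. Of 18 tested Hox genes of the A and B clusters 3 fell, with a median of -0.63. None rose by edgeR, DESeq2 or limma-voom, nor at an unadjusted p under 0.05 (0 of 18). Hoxa9, a driver of stem cell expansion, lay between 42.1 and 91.2 CPM (median 65.2) in double-mutant libraries and at 79.3, 97.6, 138 and 105 CPM in controls (log2 -0.73 ± 0.15, adjusted p = 0.00235), with an overlap between the groups. Hoxa5 lay between 5.9 and 15.6 CPM (median 10.9) in double-mutant libraries and at 26.1, 15.5, 32.4 and 44.7 CPM in controls (log2 -1.33 ± 0.25, adjusted p = 0.000821), overlapping at a single library. Of 39 genes of the polycomb complexes, Ezh2 alone was called (median -0.08), a call lost under the alternatives given above.

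Genes that interferons induce rose. Of 72 tested, 16 rose, with a median of 0.48 and 63 positive changes. None fell by edgeR, DESeq2 or limma-voom, and 1 was lower at an unadjusted p under 0.05. Without the double-mutant library that stood apart, 8 rose and 1 fell, the median was 0.38, and all 8 were among the 16. Without the control of batch 1 replicate 1 the list had 8 rises, and each batch alone had 3 and 4. Gbp3 and Gbp7, GTPases that act against intracellular pathogens, had the smallest adjusted p. Gbp3 lay between 160.2 and 296 CPM (median 214) in double-mutant libraries and at 102, 77.8, 87.8 and 81.7 CPM in controls (log2 1.30 ± 0.17, adjusted p = 1.13e-05). Gbp7 lay between 635 and 1179 CPM (median 789.8) in double-mutant libraries and at 522, 452, 380.0 and 417 CPM in controls (log2 0.95 ± 0.13, adjusted p = 1.47e-05). Both were separate, and without the library that stood apart their changes were 1.20 (adjusted p = 3.03e-05) and 0.87 (adjusted p = 3.85e-05). Ifi27, a mitochondrial interferon-induced protein, lay between 264 and 395 CPM (median 277) in double-mutant libraries and at 131, 121, 111 and 143 CPM in controls (log2 1.28 ± 0.19, adjusted p = 6.07e-05). Ifitm1, which blocks virus entry, lay between 728 and 1906 CPM (median 1641) in double-mutant libraries and at 681, 558, 911 and 803 CPM in controls (log2 1.01 ± 0.19, adjusted p = 0.00116). Its lowest library was batch 1 replicate 2, so that here the groups overlapped through it. Iigp1, an immunity-related GTPase, was highest in that library at 1125 CPM and lay between 205.7 and 465.5 CPM in the other 5, against 208, 178, 109 and 155 CPM in controls. Its log2 change was 1.38 ± 0.28 with this library (adjusted p = 0.00207) and 0.94 without it (adjusted p = 0.00389).

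The promoters of Gbp7 and Gbp3 are shown for the interferon response letters GAAANNGAAA (TTTCNNTTTC on the other strand) and, in Gbp7, the STAT palindrome, in capitals. They lie at chr3:142530086-142530385 and chr3:142559794-142560093, both on the plus strand of GRCm38.p6.
Gbp7 promoter: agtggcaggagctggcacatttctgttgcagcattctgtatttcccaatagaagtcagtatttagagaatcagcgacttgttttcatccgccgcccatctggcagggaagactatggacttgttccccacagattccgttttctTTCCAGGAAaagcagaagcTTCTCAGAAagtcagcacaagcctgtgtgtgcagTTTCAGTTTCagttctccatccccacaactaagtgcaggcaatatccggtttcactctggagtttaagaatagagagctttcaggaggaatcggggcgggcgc
Gbp3 promoter: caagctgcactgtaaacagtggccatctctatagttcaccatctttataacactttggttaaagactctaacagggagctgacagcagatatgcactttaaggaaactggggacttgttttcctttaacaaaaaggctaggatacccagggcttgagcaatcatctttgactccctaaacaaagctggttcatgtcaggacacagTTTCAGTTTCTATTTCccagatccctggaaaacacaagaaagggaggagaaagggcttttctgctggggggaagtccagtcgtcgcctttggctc
In Gbp3 the capitals are 2 overlapping matches, and a second RefSeq start of Gbp3 had none. Of the 16 called genes 12 had a promoter in the table, and 8 of these (66.7%) held the interferon letters, against 3.99% of 27025 genes. The STAT palindrome was held by 4 of the 12 (Gbp7, Ifitm3, Tgtp1 and Gbp5), against 9.55% of the 27025 genes. The CHR letters of the mitosis genes were held by 6 of the 12, against 20.2% of the 27025 genes. The CCAAT box was held by 4 of the 12, against 41.1%, so that CHR is not confined to the mitosis list.

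Antigen presentation genes had few calls. Of 20 genes of MHC class I presentation Psmb9, a subunit of the immunoproteasome, rose (log2 0.42 ± 0.12, adjusted p = 0.0385), with a list median of 0.08. This call was lost under 9 alternatives (adjusted p up to 0.149), among them the fit without the library that stood apart (adjusted p = 0.0929, list median 0.02). Of 11 MHC class II genes H2-DMb1, which loads peptides, fell (log2 -0.42 ± 0.12, adjusted p = 0.0385), with a median of -0.42 and all 11 changes negative, as were 51.2% of all tested genes. Without the library that stood apart 5 of the 11 fell, with a median of -0.78. That library had the highest level of the list among all 10. The call of H2-DMb1 held without it (adjusted p = 0.0147) but was lost under 11 other alternatives, 7 of them with 1 library left out (adjusted p up to 0.147).

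**Figure D4:**
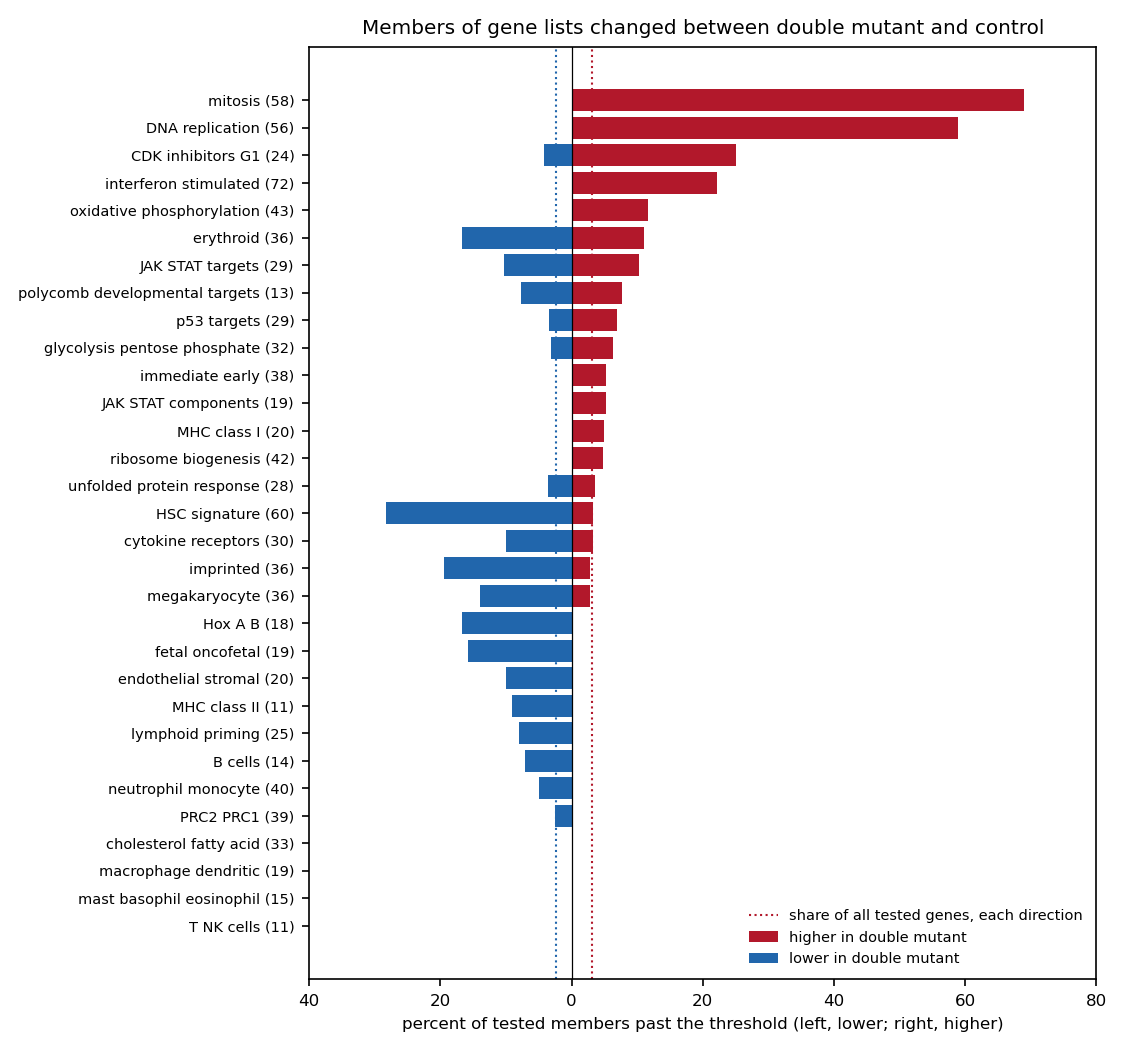
Percent of tested members of 31 gene lists (number in brackets) called higher, to the right, or lower, to the left, in the double mutant against control; dotted lines are the 3.08 and 2.3% of all tested genes. Mitosis and DNA replication reach farthest to the right and the stem cell signature (HSC) farthest to the left.

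Erythroid genes were called in both directions by edgeR. Of 36 tested, 4 rose and 6 fell, and some of these share their counts. The count of falls differed between tools. DESeq2 called 4 higher and 5 lower, and limma-voom 5 higher and 2 lower. Hbb-bt and Hbb-b2 had identical counts in every library and are 1 measurement, as are Hba-a1 and Hba-a2, and Hbb-b1 and Hbb-bs were almost identical. Hbb-bs and Hbb-bt are the adult beta-globin genes of the single haplotype of mice, and Hbb-b1 and Hbb-b2 those of the diffuse haplotype. Hbb-bt lay between 66.4 and 359 CPM (median 248) in double-mutant libraries and at 26.3, 17.1, 59.4 and 17.4 CPM in controls (log2 2.96 ± 0.48, adjusted p = 0.000206). The lowest double-mutant library was still above the highest control. Hba-a1, the alpha-globin gene, lay between 0 and 0.292 CPM (median 0.158) in double-mutant libraries and at 34.6, 4.72, 72.8 and 2.26 CPM in controls (log2 -8.34 ± 1.53, adjusted p = 0.000779), and Hbb-b1 was also called lower by edgeR (log2 -4.88 ± 0.96, adjusted p = 0.00161). By limma-voom neither Hba-a1 (adjusted p = 0.1) nor Hbb-b1 (adjusted p = 0.0708) was called. Fitted changes of the beta-globin counts had opposite signs under different gene names, and which copy the reads came from cannot be told from counts. Rhag, the Rh-associated glycoprotein of early red cells, lay between 77.9 and 113 CPM (median 101) in double-mutant libraries and at 19.2, 19.7, 32 and 37.1 CPM in controls (log2 2.07 ± 0.34, adjusted p = 0.000183). Gata1, the master factor of red cells and megakaryocytes, lay between 32.6 and 134 CPM (median 57.9) in double-mutant libraries and at 20.2, 33.5, 6.13 and 23 CPM in controls (log2 1.79 ± 0.47, adjusted p = 0.0188), and these groups overlapped at a single library. Slc4a1, the anion exchanger of mature red cells, was at 0 in all 6 double-mutant libraries and at 0.974 to 2.37 CPM in controls.

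Of 36 megakaryocyte genes, Gata1 rose and 5 fell, with a median of 0.03. Nrgn, a platelet calmodulin-binding protein, lay between 102 and 158 CPM (median 135) in double-mutant libraries and at 184, 191, 221 and 282 CPM in controls (log2 -0.73 ± 0.13, adjusted p = 0.000779). Nbeal2, needed for platelet granules, lay between 57 and 94.3 CPM (median 69.4) in double-mutant libraries and at 138, 124, 102 and 102 CPM in controls (log2 -0.69 ± 0.14, adjusted p = 0.00179). Mmrn1, a granule protein that is also high in LT-HSCs, lay between 196 and 513.8 CPM (median 214) in double-mutant libraries and at 519, 535, 588 and 514 CPM in controls (log2 -0.96 ± 0.21, adjusted p = 0.00419). All 3 were separate. Without the library that stood apart Gata1 was no longer called, 6 genes fell, and the median was -0.16.

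Lists of other blood and tissue cells held few calls. Of 40 neutrophil and monocyte genes Csf3r and Fcer1g fell (median -0.17), and their summed level was 2454 to 10490 CPM in double-mutant and 4591 to 10600 CPM in control libraries. Of 25 genes of lymphoid priming Foxo1 and Ly6d fell (median -0.18), and of 14 B cell genes Ms4a1 fell (median -0.63). By edgeR none was called among 11 T and NK cell genes (median 2.01, from genes with few counts), 15 mast cell, basophil and eosinophil genes (median -0.31) and 19 macrophage and dendritic cell genes (median -0.71). At an unadjusted p under 0.05 these lists held 1, 2 and 2 genes, DESeq2 called 1 in each, and limma-voom called 0. Of 20 endothelial and stromal genes Runx2 and Eng fell (median -0.22). Without the library that stood apart Ly6d (adjusted p = 0.0732) and Eng (adjusted p = 0.0566) were not called, nor was Csf3r. Over the alternatives Ly6d was lost under 15, Fcer1g under 11, Eng under 7, Foxo1 under 4, Ms4a1 under 3 and Runx2 under 1. Summed levels were 87.05 to 210 CPM in double-mutant and 122.7 to 145.1 CPM in control libraries for the T and NK list, 276.3 to 433.8 CPM in double-mutant and 374 to 495.7 CPM in control libraries for B cells, 2521 to 3053 CPM in double-mutant and 2870 to 3933 CPM in control libraries for mast cells, basophils and eosinophils, 198.4 to 290.4 CPM in double-mutant and 222.2 to 263.2 CPM in control libraries for macrophages and dendritic cells, and 847 to 1240 CPM in double-mutant and 849.1 to 1156 CPM in control libraries for the endothelial and stromal list. The part of other cells in the results was not tested.

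Most lists of energy and protein supply held few calls, beside the 3.08% of all tested genes that were higher. Oxidative phosphorylation had a larger share, with 5 of 43 genes higher, and 3 without the library that stood apart (median 0.22 in both fits). Among the 5 was Atp5o of ATP synthase (log2 0.50 ± 0.13, adjusted p = 0.0174). Of the 43 changes 38 were positive, against 48.8% of all tested genes. In 10 of the 43 all double-mutant libraries lay above all controls (4.19% of all tested genes). Npm1, the nucleolar chaperone nucleophosmin, lay between 779.6 and 888 CPM (median 816) in double-mutant libraries and at 399.9, 366, 574 and 510.1 CPM in controls. Its groups were separate (log2 0.86 ± 0.11, adjusted p = 1.13e-05), and with Dkc1, the pseudouridine synthase (log2 0.45, adjusted p = 0.00808), it made up the 2 rises among 42 genes of ribosome biogenesis (median 0.14), a share near that of all genes. In glycolysis and the pentose phosphate pathway Eno1 and Tkt rose and Hk2, the hexokinase that starts glycolysis, fell, of 32 (median 0.01), which is also near the share of all genes. Hk2 was not called without the library that stood apart (adjusted p = 0.0529). Of 28 genes of the unfolded protein response Xbp1, its transcription factor, rose (log2 0.74 ± 0.17, adjusted p = 0.00943) and Trib3 fell (log2 -1.13 ± 0.26, adjusted p = 0.00828; log2 -1.72 in batch 1 alone and -0.32 in batch 2 alone). None of 33 cholesterol and fatty acid genes was called by edgeR, DESeq2 or limma-voom (median 0.08), with 5 higher and 1 lower at an unadjusted p under 0.05.

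Further large changes lay outside these lists. Akr1c12, an aldo-keto reductase, lay between 11.3 and 34.3 CPM (median 21.8) in double-mutant libraries and at 1.71, 1.63, 2.46 and 1.33 CPM in controls (log2 3.61 ± 0.44, adjusted p = 5.45e-06). Cox4i2, an alternative subunit of cytochrome c oxidase, lay between 32.5 and 63 CPM (median 54.2) in double-mutant libraries and at 4.05, 6, 6.69 and 9.56 CPM in controls (log2 2.95 ± 0.41, adjusted p = 2.76e-05). Podxl, a sialomucin of stem and vascular cells, lay between 39.2 and 77.2 CPM (median 68.6) in double-mutant libraries and at 9.24, 4.15, 2.14 and 14.5 CPM in controls (log2 3.05 ± 0.52, adjusted p = 0.000359). These 3 genes were separate between the groups. Plac8, a small protein of myeloid progenitors, lay between 409 and 628 CPM (median 479) in double-mutant libraries and at 134, 58.9, 31.7 and 87.8 CPM in controls (log2 2.71 ± 0.38, adjusted p = 3.73e-05), and Cdc25c, the phosphatase that activates CDK1, rose by a log2 change of 3.14 ± 0.71 (adjusted p = 0.00631).

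Among the falls, Cyp26b1, which degrades retinoic acid, lay between 0 and 1.28 CPM (median 0.323) in double-mutant libraries and at 24.6, 6.17, 9.02 and 16.1 CPM in controls (log2 -4.96 ± 0.89, adjusted p = 0.000672). Rarb, a retinoic acid receptor, lay between 0.31 and 3.17 CPM (median 0.669) in double-mutant libraries and at 18.3, 7.76, 18.3 and 9.83 CPM in controls (log2 -3.69 ± 0.68, adjusted p = 0.000844). Pgr, the progesterone receptor, lay between 0.313 and 2.07 CPM (median 1.4) in double-mutant libraries and at 15.2, 11.1, 13.8 and 18.9 CPM in controls (log2 -3.46 ± 0.52, adjusted p = 7.32e-05). All 3 were separate between the groups. Tm4sf1, a membrane protein of vascular cells, had 0 counts in 4 of the 6 double-mutant libraries and at most 2.36 CPM in the others, against 12.4, 14.7, 21.5 and 16.1 CPM in controls. Igf1, the growth factor, was 0 to 0.196 CPM in the double-mutant libraries of batch 1 and 3.15 to 5.06 CPM in those of batch 2, against 19.9, 5.29, 20.3 and 12.8 CPM in controls (adjusted p = 0.0187, up to 0.0764 when 1 library was left out). Jchain, of antibody-secreting cells, was called lower (adjusted p = 0.0468) through the control of batch 1 replicate 2 at 160 CPM, and batch 2 alone gave a log2 change of 0.32, while leaving out that control gave -1.87 and no call. Among genes with at most 3 counts over the controls, Slc14a2, a urea transporter, had 530 counts in double-mutant cells and 0 in controls (at least 79.9-fold higher, adjusted p = 0.0499), and its highest double-mutant libraries were batch 1 replicates 1 and 2, at 6.90 and 11.9 CPM, against 0 to 0.69 CPM in the other 4. Efemp1, a matrix protein, had 370 counts in double-mutant cells and 0 in controls (at least 55.8-fold, adjusted p = 0.0492), and Pcolce2, an enhancer of collagen processing, 131 in double-mutant cells and 0 in controls (at least 19.8-fold, adjusted p = 0.0369). The limit is 3 counts over the 4 controls, and leaving out 1 library ended each of these calls (adjusted p up to 0.147, 0.132 and 0.104).

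Each single mutant was also set against the same 4 controls, which these comparisons share. JAK2V617F changed 620 genes (4.15%), 349 higher (2.34%) and 271 lower (1.81%), with list medians of 1.72 for mitosis, 0.96 for DNA replication, -0.44 for the stem cell signature and -0.10 for interferon-stimulated genes. Loss of Ezh2 alone gave 0 calls by edgeR (0.0%), the only tool run on it, and 907 genes at an unadjusted p under 0.05 (6.07%), with medians of -0.10, 0.05, 0.10 and 0.46 for the same lists. Ezh2 itself was not called there (log2 -0.95 ± 0.26, adjusted p = 0.483), so the 0 calls do not show that no gene changed. That comparison set 4 libraries, 1 female and 3 male, against 4 female controls.

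Where the double mutant differed from each single mutant was tested directly. These comparisons share the double-mutant libraries with the one above, and so are not independent of it. Against JAK2V617F cells with intact Ezh2, 67 genes differed (0.448%), 56 higher (0.375%) and 11 lower (0.0736%). Of the JAK2V617F libraries both of batch 1 were female and all 4 of batch 2 male, and without the JAK2V617F library of batch 1 replicate 1 the count was 27. No gene of the mitosis or DNA replication list was called by edgeR, DESeq2 or limma-voom, with 1 mitosis gene higher and 2 replication genes lower at an unadjusted p under 0.05 (7.19% of all genes), and the list medians were -0.03 and 0.01. Of the 60 stem cell signature genes 5 were higher than in JAK2V617F cells, Ndn among them, and 1 was lower, with a median of 0.19 and 38 positive differences. Against Ezh2 -/- cells without JAK2V617F, 719 genes differed (4.81%), 425 higher (2.84%) and 294 lower (1.97%). Of the Ezh2 -/- libraries 1 was female and 3 were male, and batch 1 held 1 of them, a male. There, 48 mitosis and 26 DNA replication genes were higher, with medians of 1.91 and 0.90, and 20 stem cell signature genes were lower and 3 higher, with a median of -0.40. The count over all genes was 344 without the Ezh2 -/- library of batch 2 replicate 1, 428 without that of replicate 3, and 466 without the double-mutant library of batch 2 replicate 2.

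Interferon-stimulated genes differed from JAK2V617F cells in 14 of 72, all higher in the double mutant, with a median of 0.62, and from Ezh2 -/- cells in 3 of 72, with a median of -0.02. Without the library that stood apart the counts were 7 higher, and 3 higher and 3 lower. Gbp3 averaged 215 ± 50.2 CPM in the double mutant, 91 ± 15.8 CPM with JAK2V617F alone, 122 ± 21.5 CPM with loss of Ezh2 alone and 87.2 ± 10.4 CPM in controls (SD, n = 6, 6, 4 and 4). It was higher in the double mutant than in JAK2V617F cells (log2 1.20, adjusted p = 2.73e-05) and than in Ezh2 -/- cells (log2 0.77, adjusted p = 0.00721). Gbp7 was also higher than in JAK2V617F cells (log2 0.90, adjusted p = 2.73e-05) and in Ezh2 -/- cells (log2 0.63, adjusted p = 0.00336). Iigp1 was higher than in JAK2V617F cells (log2 1.36, adjusted p = 0.00601), and its difference from Ezh2 -/- cells did not pass (log2 0.39, adjusted p = 0.513).

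A few genes were high in the double mutant against all 3 other groups. Mab21l2 averaged 70.7 ± 29.9 CPM in the double mutant, 2.54 ± 2.55 CPM with JAK2V617F, 3.3 ± 1.58 CPM without Ezh2 and 1.33 ± 0.559 CPM in controls, and it was higher than in JAK2V617F cells (log2 4.89, adjusted p = 0.00217) and Ezh2 -/- cells (log2 4.46, adjusted p = 0.00789). Hbb-bt, counted together with Hbb-b2, averaged 234 ± 110.0 CPM in the double mutant, 24.3 ± 9.26 CPM with JAK2V617F, 29.2 ± 13 CPM without Ezh2 and 30.1 ± 20 CPM in controls, with log2 differences of 3.47 (adjusted p = 2.73e-05) and 3.24 (adjusted p = 0.000159) from JAK2V617F and Ezh2 -/- cells. Xbp1 averaged 354 ± 96.6 CPM in the double mutant, 216 ± 63.2 CPM with JAK2V617F, 168 ± 34.3 CPM without Ezh2 and 207 ± 28.9 CPM in controls, with log2 differences of 0.84 from JAK2V617F cells (adjusted p = 0.00699) and 1.20 from Ezh2 -/- cells (adjusted p = 0.000108). Pgr was lower than in JAK2V617F cells (log2 -2.03, adjusted p = 0.0367) and Ezh2 -/- cells (log2 -3.78, adjusted p = 2.69e-05). Igf2, at 0 counts in the double mutant, lay between 0.0857 and 1.30 CPM with JAK2V617F alone (adjusted p = 0.00921 for the difference) and between 4.21 and 7.53 CPM without Ezh2. Ndn ran the other way. It averaged 89 ± 21.7 CPM in the double mutant, 50.4 ± 14.3 CPM with JAK2V617F, 174 ± 18.7 CPM without Ezh2 and 118 ± 23.4 CPM in controls, so that it was higher than in JAK2V617F cells (log2 0.97, adjusted p = 2.73e-05) and lower than in Ezh2 -/- cells (log2 -0.81, adjusted p = 0.000333).

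**Figure D5:**
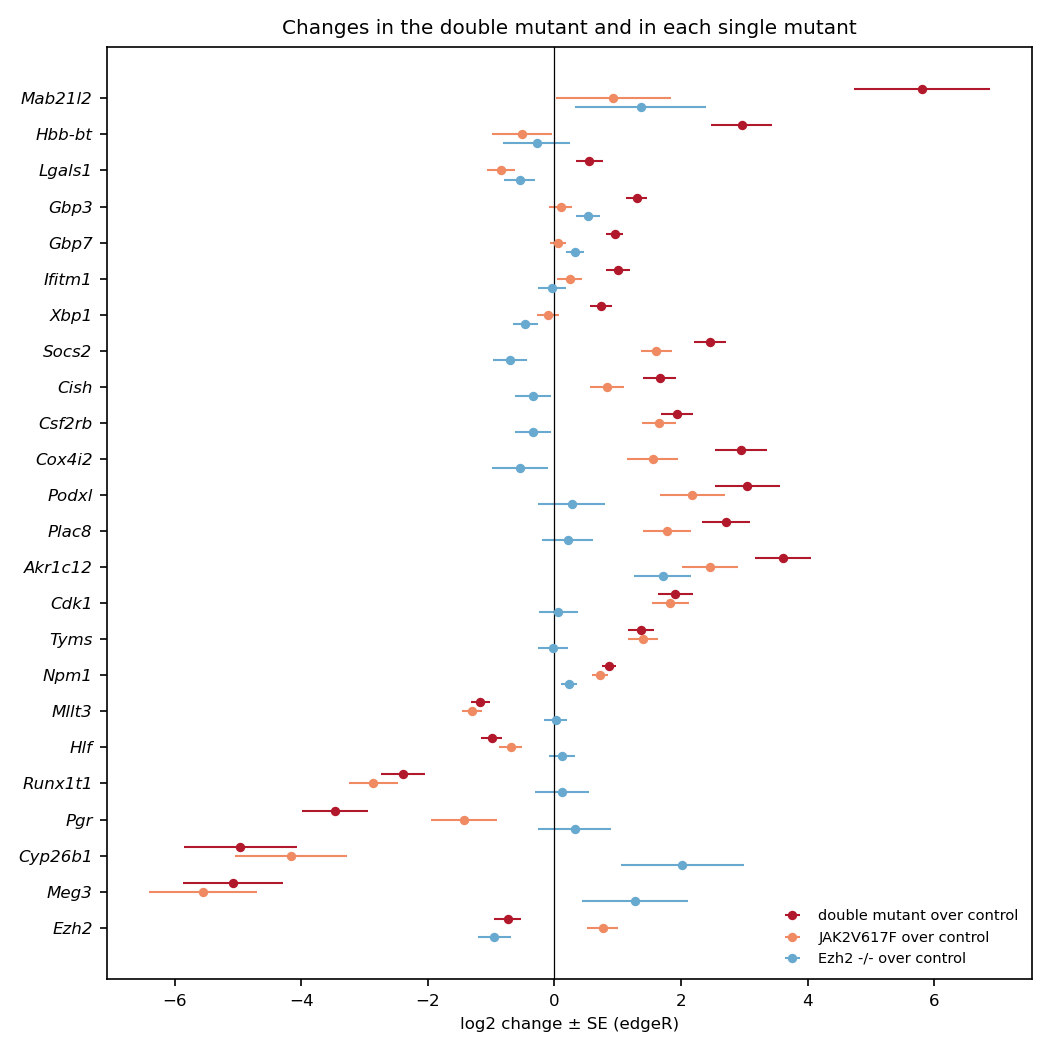
Log2 changes with SE (x axis) of 24 genes against control in the double mutant (red), JAK2V617F (orange) and Ezh2 -/- cells (blue), which share the 4 control libraries. Mab21l2 and Hbb-bt lie far to the right in the double mutant alone, at 5.81 and 2.96, while Cdk1, Tyms, Mllt3 and Meg3 lie close together in the double mutant and JAK2V617F cells.

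Whether the joint change differed from the sum of the single changes on the log2 scale was tested by the interaction term, which called 1 gene (0.00669%), Lgals1, which encodes galectin-1. At an unadjusted p under 0.05 there were 812 genes (5.43%). The count was 0 without each of 6 libraries in turn: Ezh2 -/- batch 2 replicates 1 and 3, JAK2V617F batch 1 replicate 1, double-mutant batch 2 replicates 1 and 2, and control batch 1 replicate 1. Lgals1 lay between 31.8 and 59.5 CPM (median 46.4) in double-mutant libraries, between 13.1 and 26.6 CPM with JAK2V617F, between 16.4 and 30.6 CPM without Ezh2, and at 36.5, 29.5, 22.3 and 31 CPM in controls. It averaged 45.3 ± 9.85 CPM in the double mutant, 20 ± 5.24 CPM with JAK2V617F, 25.3 ± 6.58 CPM without Ezh2 and 29.8 ± 5.88 CPM in controls. The interaction was 1.94 (adjusted p = 0.0266). The double mutant was higher than JAK2V617F (log2 1.39, adjusted p = 0.000102) and Ezh2 -/- cells (log2 1.10, adjusted p = 0.00266), and its change against control did not pass (log2 0.55 ± 0.21, adjusted p = 0.124). Next in order were Hbb-bt (interaction 3.75, adjusted p = 0.0737), Ncam2, a neural adhesion molecule (3.10, adjusted p = 0.0743), and Xbp1 (1.30, adjusted p = 0.0989), which did not pass. Gbp3 (0.67, adjusted p = 0.745) and Mab21l2 (3.53, adjusted p = 0.722) did not pass either.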

How the data were processed

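RNA of LT-HSC libraries was counted per gene. The values are raw counts per Entrez gene, deposited by the authors without normalization. STAR and build mm9 are named in the submitters' processing notes, while the sources used here do not give versions, counting tool, annotation or strand setting, so overlapping and antisense genes may share counts. Of 19138 genes, 19075 matched a symbol, 63 did not and 41 had no count. The separately counted stretch of Ezh2 (at most 0.000935% of a library) and the gene lengths entered neither library sizes nor tests.

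The main test was edgeR 4.0.16 (R 4.3.3) with quasi-likelihood on all 35 libraries, with group, batch and sex as terms, TMM scaling (factors 0.937 to 1.062) and filterByExpr by group, which kept 14945 genes and left out 4193. There were 27 residual degrees of freedom, and the common BCV (biological coefficient of variation) was 0.554. CPM used the TMM-scaled library size, p-values were adjusted over all tested genes after Benjamini and Hochberg, and an SE is the log2 change over the square root of F. Alternatives used DESeq2 1.42.0, limma-voom (limma 3.58.1), other scaling, filters and terms, each batch alone, females, and each library left out. The procedure was also run on simulated counts, with no batch or sex effect and with a spread not estimated from these data. That run therefore does not show how the procedure performs on these data. Levels of lists are means of log2(CPM + 1). Tables and figures used Python 3.11.15, pandas 2.3.3, numpy 2.4.6, scipy 1.17.1 and matplotlib 3.10.9.

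By rule, the text names Jak2, Ezh1 and Ezh2, the called genes with the 12 strongest rises and 12 strongest falls where mean log2 CPM was 3 or more, up to 4 called members of each list (2 by smallest p in a list without calls), the 5 smallest adjusted p of the interaction, and 5 called genes with at most 3 control counts. Gata1, Mki67, Pcna, Hlf, Meis1, Procr, Slamf1, Fgd5, Iigp1, Lin28b, Cdkn2a, Csf3r, Tnfrsf1b, Dkc1 and other list members named only by symbol fall outside this rule and were picked once their values had been seen. The members and the 32 lists (1066 of 1105 entries matched, 6 by a synonym) were chosen with earlier results of these data known. Since the labels tie no library to an animal, p-values reflect only how libraries vary, which may be technical. No 2 libraries of a group agreed within sampling noise. Some genes that the rule names are not reported here.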

Additional observations from a re-analysis of the deposited data

Results flagged for a closer look

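Among 108 groups of libraries checked gene by gene, 5 held a library far from the others of its group, where chance gives about 1 in 20. In double-mutant libraries, Rhag was lowest in batch 2 replicate 2 at 77.88 CPM, Cdkn1b highest in batch 2 replicate 3 at 95.01 CPM, and Plk2 lowest in batch 1 replicate 1 at 20.78 CPM. Ifitm1 at 728.5 CPM and Cox4i2 at 32.47 CPM were lowest in the double-mutant library of batch 1 replicate 2.

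Lgals1 differed between the double mutant and the sum of the single-mutant changes, with an interaction of 1.94 on the log2 scale.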

How the results depend on the processing

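Double mutant against control gave 804 calls. DESeq2's Wald test gave 1211, limma-voom 1036, DESeq2 size factors 805, no filter 767, no sex term 789, the compared groups alone 806 and females alone 723. Batch 1 alone gave 116 and batch 2 alone 111, and 320 changed at least 2-fold. Leaving out 1 library gave 379 to 736. Against JAK2V617F (67), DESeq2 gave 193, limma-voom 104, batch 1 alone 1, batch 2 alone 20, and leaving out 1 library 27 to 67. Against Ezh2 -/- (719), DESeq2 gave 1117, batch 1 alone 3, batch 2 alone 350, and leaving out 1 library 344 to 649. The interaction (1) gave 92 by DESeq2, 6 without the filter, 2 without the sex term, 0 in batch 2 alone, and 0 to 4 with 1 library left out. With the replicate number as a block the counts were 1110, 47, 405 and 0. Whether the numbers pair the libraries is not stated in the labels, and same-numbered deviations correlated at -0.046, 0.013 and 0.037. With 2 controls in each batch the deviations of the controls mirror each other, so these correlations cannot settle it. The Ezh2 part differed by -7.19 percentage points in batch 1 alone and -7.369 in batch 2 alone (exact permutation p = 0.1, the smallest possible there), and by -7.699 to -6.8 with 1 library left out. Jchain reversed in batch 2 alone (log2 0.32). Over named genes, 1755 values kept direction and side of the threshold, 341 lost the call, 16 gained it and 1 reversed. The cause of these differences was not tested, and fits on a batch or without a library use fewer libraries. The median change of all genes lay between -0.021 and 0.017 in every fit. Genes with few counts in a group have uncertain fold changes at this depth.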
